A study of Drosophila melanogaster with 32 samples.

Results

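The genes described here encode the 5 protein subunits of the male-specific lethal complex measured as *msl-1*, *msl-2*, *msl-3*, *mle* and *mof*, together with *Clamp*, a zinc-finger factor that helps to place the complex on the X chromosome. They were taken from the deposited gene count table by their FlyBase symbols and not by a rule on their values. Earlier results of these data were known when they were chosen. The members are 6 of the 17490 genes in that table. Their transcript levels are given in both sexes of 4 *Drosophila melanogaster* genotypes.

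The samples were whole adult flies whose rRNA-depleted RNA was sequenced, and each sample pooled 10 virgin females or males. In each pool 3 flies were collected 6 to 8 h, 4 flies 14 to 16 h and 3 flies 22 to 24 h after eclosion, so that the flies were less than 1 day old. There were 4 samples in each of the 8 combinations of sex and genotype, 32 in all. No treatment was applied. PofD119 flies carry a deletion that uncovers the coding region of *Pof*, whose protein binds the 4th chromosome. Zhr1 flies lack the large block of a satellite repeat next to the centromere of the X chromosome, and the Zhr1 males carried a wild-type Y chromosome that was not a translocation. PoX2Df1.688 flies lack a smaller block of the same satellite, the one downstream of *CG1840* on the X. The wild type was Oregon R, labelled OR. The stocks were not made isogenic, so a difference between a mutant and OR cannot be told apart from a difference in genetic background.

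In flies, males have a single X chromosome, and the male-specific lethal complex binds active genes along it and raises their transcription towards the output of the female pair. The complex forms only in males because Sex lethal, present in females, blocks translation of *msl-2* mRNA. MSL-2 and MSL-1 make the core that recognises high-affinity sites on the X, MSL-3 reads methylated histone H3 on active genes, MLE is an RNA helicase that remodels the roX RNAs, and MOF acetylates histone H4 at lysine 16. MOF also works in the non-specific lethal (NSL) complex at promoters in both sexes, and CLAMP binds GA repeats in both sexes and at the high-affinity sites.

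In the release 6 gene annotation that the authors used, *msl-2* (FBgn0005616) lies on chromosome 2L at 3462218 to 3466112 and *msl-1* (FBgn0005617) on 2L at 18683720 to 18688800. *Clamp* (FBgn0032979) lies on 2L at 22165720 to 22169143 and *mle* (FBgn0002774) on 2R at 5974857 to 5980778. *msl-3* (FBgn0002775) lies on 3L at 7123213 to 7125533. Only *mof* (FBgn0014340) is X-linked, at 5873840 to 5876853. All 6 are on the minus strand. The counting did not use strand and left out reads that fell on more than 1 gene. On the opposite strand, *CG42748* overlaps 502 bp (17.3%) of the *Clamp* exons and *form3* overlaps 85 bp (4.3%) of those of *msl-3*, so the counts of these genes leave out reads from those stretches and may hold some reads of their partners.

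The libraries held 12186486 to 37992591 counts, and those of OR were deeper than those of Zhr1 and PoX2Df1.688. Member counts ran between 141 (*mof*) and 2713 (*msl-1*) per library. *Pof* averaged 12.3 ± 1.06 CPM (library-scaled counts) in PofD119 males and 328 ± 15.3 CPM in OR males, and 8.37 ± 1.67 CPM in PofD119 females and 13.4 ± 0.69 CPM in OR females (SD, n = 4 each). The sexed tissues followed the labels. Testis markers summed to 464 to 856 CPM in males and 6.06 to 12.3 CPM in females, accessory gland markers to 1931 to 3413 CPM in males and 4.50 to 9.55 CPM in females, and 1 of the 6 accessory gland genes was at 0 in every library. Yolk protein markers summed to 2031 to 8952 CPM in females and to 6.73 to 358 CPM in males, the highest male value being that of OR male replicate 2.

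Levels below are CPM after scaling with edgeR's trimmed mean of M values (TMM), over all 32 libraries where the sexes are set side by side and over the 16 libraries of a sex where a mutant is set against OR. Tests are edgeR quasi-likelihood tests over all genes that passed the filter on low counts, with Benjamini-Hochberg adjustment, and a gene was called at an adjusted p below 0.05. Positive log2 fold changes mean higher in the group named first. The shares of all genes with an unadjusted p below 0.05, or with groups that did not overlap, were not counted.

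Both core subunits differed between the sexes, in opposite directions. With all 32 libraries scaled together, *msl-2*, the male-limiting subunit, had 29.6, 27.5, 33.4 and 30.9 CPM in OR males, against 17.6, 18.7, 17.9 and 19.5 CPM in OR females. Over all genotypes the 16 male libraries lay between 27.5 and 36.6 CPM (median 32.3) and the 16 female libraries between 15.5 and 23 CPM (median 18.3), so no female library reached any male one. The log2 fold change of males over females was 0.72 (SE 0.08) in OR, with an adjusted p of 1.07e-08, and 0.67, 0.93 and 0.83 in PofD119, Zhr1 and PoX2Df1.688. *msl-2* mRNA was thus 1.65-fold higher in OR males by this fit, and it was also plainly detected in females, in every library.

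*msl-1*, the scaffold that MSL-2 binds, went the other way. It had 42.4, 42.8, 36.1 and 38.2 CPM in OR males, against 89.8, 73.5, 75.2 and 79.5 CPM in OR females. Over the 4 genotypes the male libraries lay between 34.98 and 45.6 CPM (median 40.5) and the female libraries between 51.9 and 123 CPM (median 93.5), again without overlap. The log2 fold change of males over females was -0.996 (SE 0.11) in OR, with an adjusted p of 4.29e-09, and -0.84, -1.49 and -1.25 in PofD119, Zhr1 and PoX2Df1.688. Per kilobase of exon, a scale on which genes can be compared, *msl-2* and *msl-1* had nearly equal mean levels in OR males, 7.90 and 7.94 CPM per kb, whereas in OR females they had 4.80 and 15.8 CPM per kb. In these whole flies, fewer cells of a type and less RNA per cell cannot be told apart, and the part that the gonads, whose marker genes are given above, take in these differences was not tested.

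**Figure D1:**
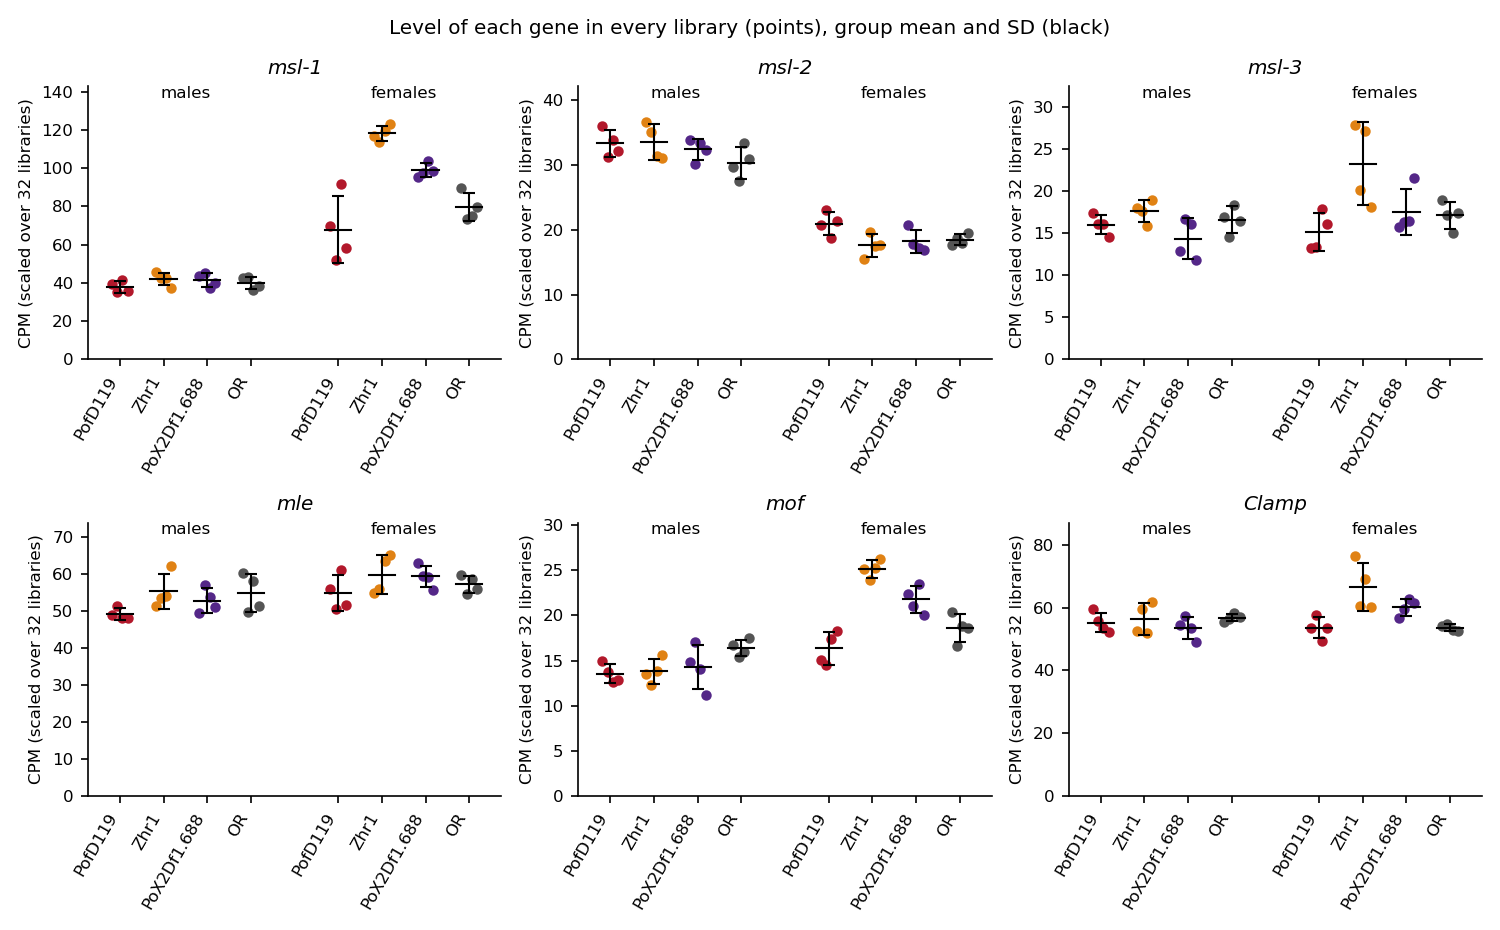
CPM of each of the 6 genes in every library, by genotype and sex, scaled over all 32 libraries, with the mean and SD of each group of 4. The sexes are apart for *msl-2* (males 27.5 to 36.6 CPM, females 15.5 to 23 CPM) and for *msl-1* (males 34.98 to 45.6 CPM, females 51.9 to 123 CPM), and overlap for the other members.

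The other members differed less between the sexes. *mof*, the acetyltransferase and the only X-linked member, had 16.7, 15.4, 16.0 and 17.5 CPM in OR males, against 20.4, 16.6, 18.9 and 18.6 CPM in OR females, groups that overlap. Its log2 fold change of males over females was -0.18 (SE 0.10, adjusted p = 0.115) in OR, and it was lower in males of the mutants, by -0.27 in PofD119 (adjusted p = 0.0223), -0.87 in Zhr1 (1.2e-08) and -0.60 in PoX2Df1.688 (9.31e-06). *msl-3*, the chromodomain subunit, was lower in Zhr1 males than in Zhr1 females by -0.40 on the log2 scale (SE 0.14, adjusted p = 0.00983) and was not called in the other 3 genotypes, where the values were 0.08, -0.28 and -0.05 in PofD119, PoX2Df1.688 and OR. *Clamp* was likewise called only in Zhr1, at -0.24 (adjusted p = 0.00517). In OR it was at 55.6, 56.4, 58.4 and 57.2 CPM in males, against 54.2, 54.9, 52.8 and 52.7 CPM in females. These groups did not overlap (exact permutation p = 0.0286, two-sided, the smallest that 4 against 4 can give), but the log2 fold change of 0.08 was not called across all genes (adjusted p = 0.333). *mle*, the helicase, was not called in any genotype, with log2 fold changes between -0.17 and -0.06.

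By count, 2 of the 6 members were called between OR males and OR females, where 60.7% of all 13948 genes tested were called. The members called numbered 3 in PofD119, 5 in Zhr1 and 3 in PoX2Df1.688, against 61.8%, 70.7% and 61.9% of all genes, so that being called between the sexes did not set the members apart from other genes. The median log2 fold change over all genes was 0.07 in OR, 0.02 in PofD119, 0.25 in Zhr1 and 0.15 in PoX2Df1.688, and member values are best read against these medians. In 7 of the 8 fits that left out 1 Zhr1 library, the Zhr1 median moved down by more than 0.1, to between 0.109 and 0.134, and *mle* was called lower in Zhr1 males in these 7 fits. The directions of *msl-1* and *msl-2* and their calls held in every alternative and every left-out library in all 4 genotypes. The *mof* call in PofD119 was lost without PofD119 female replicate 3 or 4 or PofD119 male replicate 3 or 4, where the adjusted p lay between 0.0567 and 0.0912, and in 4 of 7 alternative settings, DESeq2 among them (adjusted p up to 0.0969). Calls gained when 1 library was left out were those of *mof* in OR (without OR female replicate 3 or OR male replicate 1 or 3), of *mle* in PofD119 (without replicate 2 of either sex), and, in PoX2Df1.688, of *msl-3* (without male replicate 2), *mle* (without female replicate 4 or male replicate 2 or 4) and *Clamp* (without female replicate 1 or male replicate 2 or 4). All of these were lower in males, with log2 fold changes between -0.44 and -0.19.

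**Figure D2:**
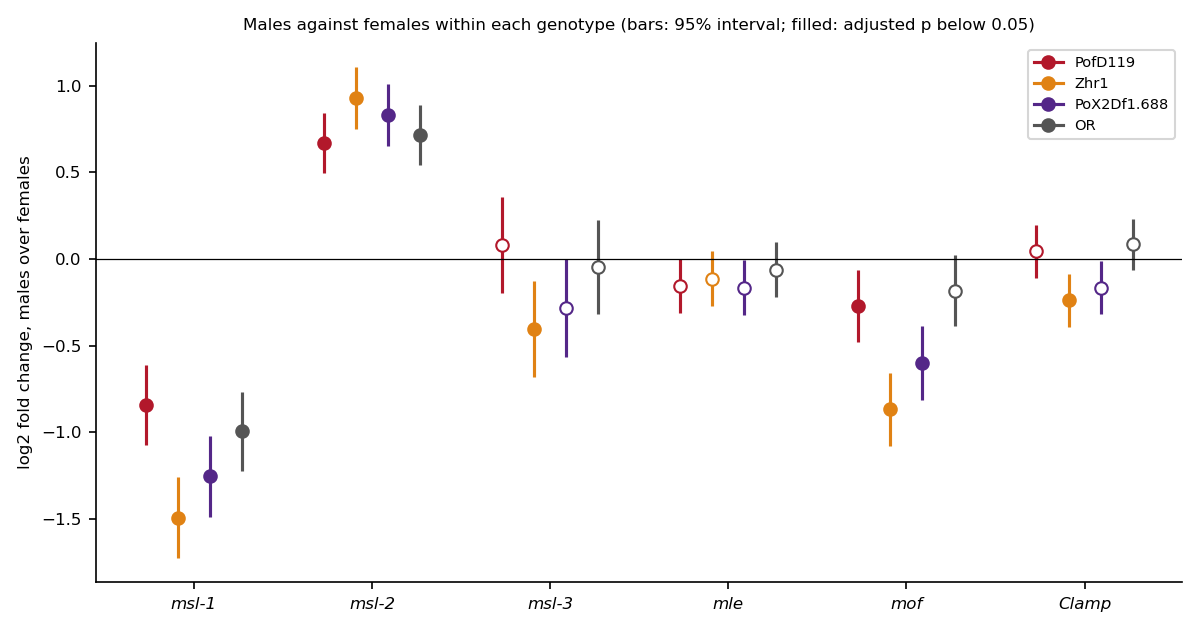
Log2 fold change of males over females for each of the 6 genes in each genotype, with 95% intervals, from the fit over all 32 libraries. *msl-2* is above 0 in all 4 genotypes (0.67 to 0.93) and *msl-1* below 0 in all 4 (-1.49 to -0.84). *mle* lies between -0.17 and -0.06 and is called in none by this fit, where the medians over all genes were 0.02 to 0.25. Most fits that left out a Zhr1 library called *mle* lower in Zhr1 males.

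Females that lack the pericentromeric satellite block had higher levels of 4 members. In Zhr1 females *msl-1*, *msl-3*, *mof* and *Clamp* were called higher than in OR females, against 20.3% of the 11938 genes tested that were called higher there, and *msl-2* and *mle* were not called. The median log2 fold change of the 6 members was 0.35 and that of all genes -0.01. Changes of this size were common in these flies, since 41.1% of all genes were called in either direction, and 41.6% and 56.4% of all genes had a log2 fold change at least as far from 0 as those of *mof* and *Clamp*. The members were not tested as a group.

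With the 16 female libraries scaled together, *msl-1* had 119.9, 119, 122 and 126 CPM in Zhr1 females, against 93.9, 77.1, 78.5 and 82.7 CPM in OR females. Every Zhr1 library was above every OR library. The log2 fold change was 0.55 (SE 0.13, 95% interval 0.27 to 0.83), that is 1.46-fold, with an adjusted p of 0.00407. *mof* had 25.9, 24.9, 25.7 and 26.9 CPM in Zhr1 females, against 21.4, 17.5, 19.7 and 19.3 CPM in OR females. These groups did not overlap either, and the log2 fold change was 0.41 (SE 0.09, adjusted p = 0.0024). *Clamp* had 78.5, 63.1, 70.4 and 61.6 CPM in Zhr1 females, against 56.7, 57.6, 55.1 and 54.8 CPM in OR females. Again the lowest Zhr1 value was above the highest OR value, with a log2 fold change of 0.29 (SE 0.08, adjusted p = 0.00778). The exact permutation p was 0.0286 for each of these 3 genes, two-sided, the smallest possible here, and all 3 stayed called with any 1 library left out. Since 41.1% of all genes were called here, groups apart in this way may be common, and their share was not counted.

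*msl-3* was the least certain of the 4. It had 28.6, 20.98, 27.6 and 18.5 CPM in Zhr1 females, against 19.8, 17.98, 15.8 and 18.2 CPM in OR females. Replicates 1 and 3 of Zhr1 were high, and replicate 4 lay within the OR range. The log2 fold change was 0.42 (SE 0.15, adjusted p = 0.0346, exact permutation p = 0.0571). The call was lost in 5 of the 8 fits that left out 1 library, namely OR female replicate 2 (adjusted p = 0.067), 3 (0.102) or 4 (0.0636) and Zhr1 female replicate 1 (0.104) or 3 (0.092). The subunits that were not called had log2 fold changes of -0.09 (95% interval -0.29 to 0.11) for *msl-2* and 0.04 (-0.13 to 0.21) for *mle*.

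**Figure D3:**
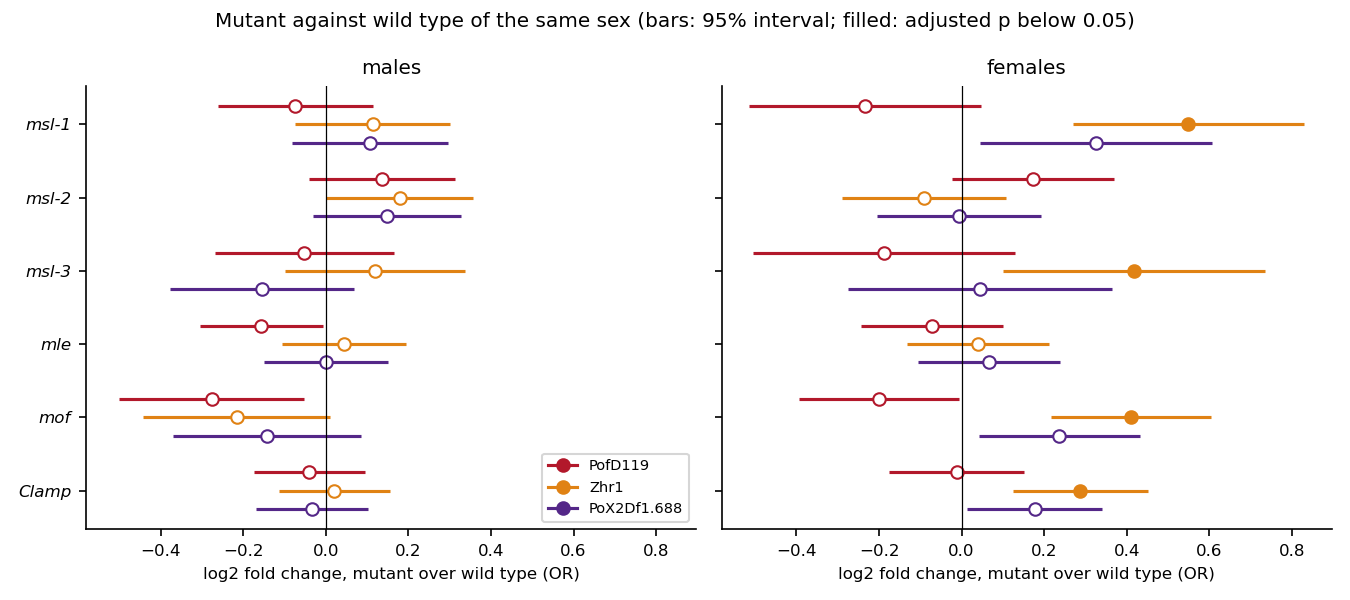
Log2 fold change of each mutant over OR for the 6 genes, females and males in separate panels, with 95% intervals and filled symbols for genes called at an adjusted p below 0.05. The 4 called values (*msl-1* 0.55, *msl-3* 0.42, *mof* 0.41 and *Clamp* 0.29) are all in Zhr1 females, and no interval in males extends beyond -0.50 or 0.36.

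Most female germline and chorion markers were also called higher in Zhr1 females. Female germline markers, 11 genes measured, summed to 1779 to 2370 CPM in Zhr1 females and 941 to 1285 CPM in OR females (32-library scale), and 8 of the 10 tested were called higher. These markers were also present in males, at 896 to 1296 CPM, so they are not specific to ovaries. Chorion markers, 9 genes made by follicle cells late in oogenesis, summed to 1082, 547, 2150 and 2.60 CPM in Zhr1 females and 1.58 to 3.71 CPM in OR females, and 8 of the 8 tested were called higher. Vitelline membrane markers, 6 genes made earlier by the same cells, summed to 900 to 2850 CPM in Zhr1 females and 247 to 1167 CPM in OR females, and 1 was called higher. None of these genes was at 0 throughout either group. Larval fat body markers summed to 1517 to 3032 CPM in Zhr1 females and 828.9 to 1487 CPM in OR females, with 2 of 6 called higher and 1 lower. Zhr1 female replicate 4, whose chorion sum was within the OR range, had the highest germline sum of its group, the lowest *Clamp* and *msl-3* and the highest *msl-1* and *mof*. Over the 16 female libraries the lowest germline sum and the lowest *msl-1* were in the same library, PofD119 replicate 2 (534 and 51.9 CPM), and the highest of both in Zhr1 replicate 4 (2370 and 123 CPM). The part that ovary or fat body content takes in the member values was not tested, nor was any relation of marker sums to members over the libraries.

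**Figure D4:**
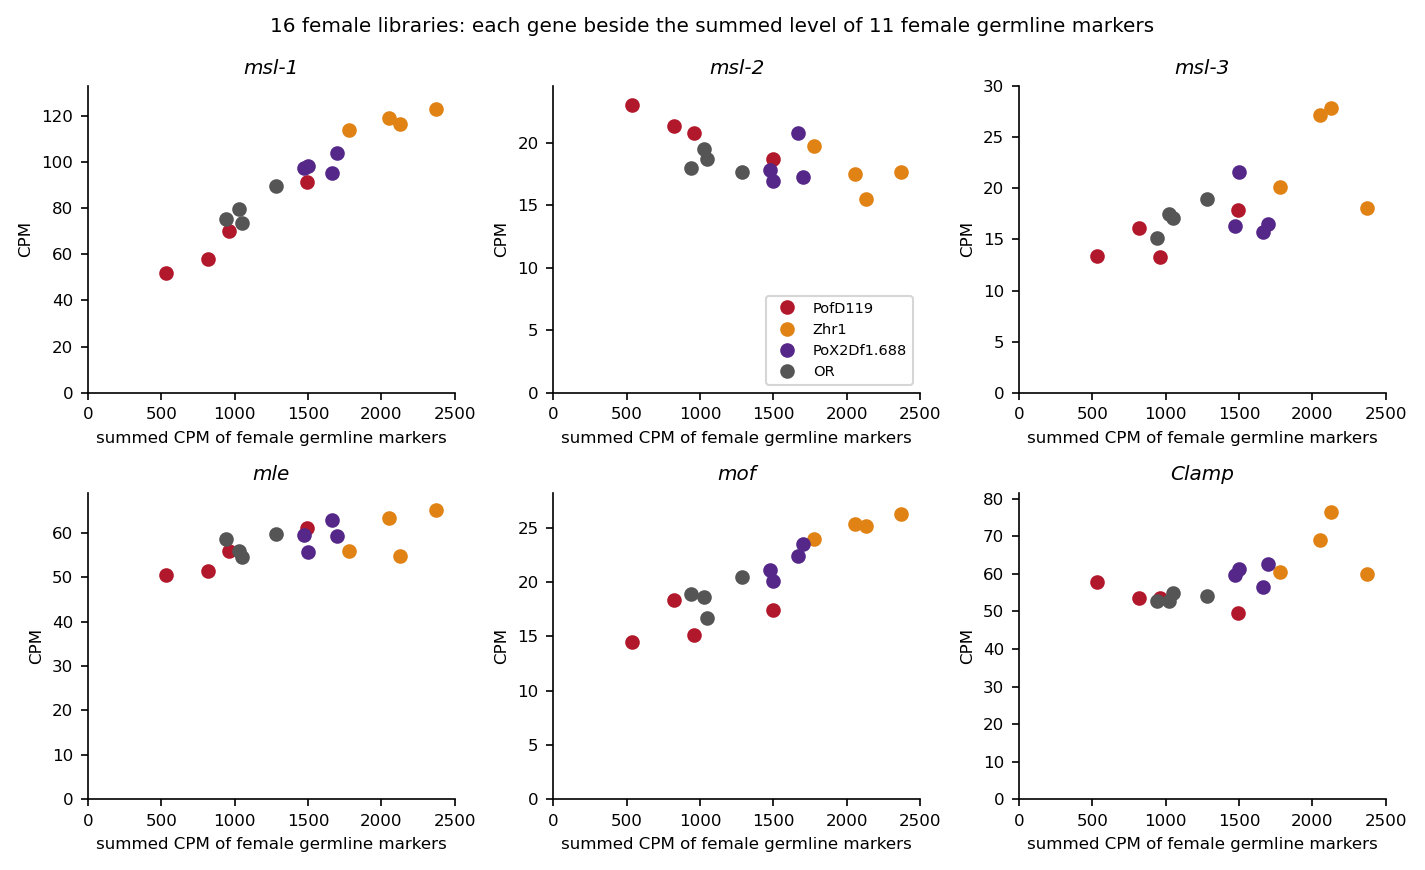
Summed CPM of the female germline markers against CPM of the members in the 16 female libraries, by genotype, scaled over all 32 libraries. Zhr1 females (germline sum 1779 to 2370 CPM) and PoX2Df1.688 females (1474 to 1700 CPM) lie to the right of OR females (941 to 1285 CPM), and PofD119 females spread between 534 and 1496 CPM.

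In PoX2Df1.688 females none of the 6 members was called by edgeR, where 19.4% of all genes were called. DESeq2 likewise called 0. An unadjusted p below 0.05 was found for 3 members. The shares of all genes at that unadjusted threshold, or with groups apart, were not counted. *msl-1* had 100.2, 103, 109 and 104 CPM in PoX2Df1.688 females, against 93.9, 77.1, 78.5 and 82.7 CPM in OR females. The groups did not overlap (exact permutation p = 0.0286), but the log2 fold change of 0.33 had an adjusted p of 0.0956. For *mof* the log2 fold change was 0.24 (adjusted p = 0.0815), with 23.6, 22.4, 24.6 and 21.2 CPM in PoX2Df1.688 females, so that its lowest library was just under the highest OR library. *Clamp* was at 59.5, 63.3, 65.8 and 65.0 CPM in PoX2Df1.688 females, above all OR females, with a log2 fold change of 0.18 (adjusted p = 0.12). *msl-2*, *msl-3* and *mle* had log2 fold changes of -0.01, 0.04 and 0.07. Germline markers were higher in these females as well, with 3 of 10 called, as were 4 of 8 chorion markers, and their part was not tested.

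In PofD119 females none of the 6 was called by edgeR or by DESeq2, and edgeR called 16.5% of all genes. An unadjusted p below 0.05 was found for 1 member, a threshold at which all genes were not counted. *msl-1* had 73.9, 52.9, 96.0 and 59.5 CPM in PofD119 females, a wider spread than the 77.1 to 93.9 CPM of OR females. Replicate 3 was above every OR library and the other 3 were below all of them. The log2 fold change was -0.23 (95% interval -0.51 to 0.05, adjusted p = 0.253), and without PofD119 female replicate 3 it was -0.42 with an adjusted p of 0.0078, a call. The germline marker sum of the same 4 libraries was 960.2, 534, 1496 and 819 CPM, highest in replicate 3 and lowest in replicate 2, in the same order as *msl-1*. Larval fat body markers summed to 1956 to 2551 CPM in PofD119 females and 828.9 to 1487 CPM in OR females, with 4 of 6 called higher. The other members had log2 fold changes between -0.20 (*mof*, adjusted p = 0.154) and 0.17 (*msl-2*, adjusted p = 0.227). The 3 mutants were set against the same 4 OR female libraries, so their member values are not independent.

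Males showed no called change in any member. Of all genes, 25.2% were called in PofD119 males, 22.9% in Zhr1 males and 20.9% in PoX2Df1.688 males, all against the same 4 OR male libraries. The 18 member values had log2 fold changes between -0.28 and 0.18, 95% intervals that stayed within -0.50 and 0.36, and adjusted p of 0.0652 or above. An unadjusted p below 0.05 was found for 3 of the 18, namely 2 in PofD119 males and 1 in Zhr1 males. The share of all genes at that unadjusted threshold was not counted. *mof* in PofD119 males was nearest to the threshold. With the 16 male libraries scaled together it had 14.0, 12.6, 12.01 and 12.7 CPM in PofD119 males, against 15.7, 14.6, 15.1 and 16.7 CPM in OR males. No PofD119 library reached the lowest OR library (exact permutation p = 0.0286), and the log2 fold change was -0.28 (SE 0.11). DESeq2 called it (adjusted p = 0.0388), 1 of the 6 members, and called none in Zhr1 or PoX2Df1.688 males. The share of all genes called by edgeR in PofD119 males was 25.2%, so 1 of 6 does not set the members apart. *mle*, at -0.16 in PofD119 males (adjusted p = 0.118), was called without OR male replicate 2, the library with the high yolk protein sum, at -0.20 (adjusted p = 0.043).

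*msl-2* in males, the level on which formation of the complex depends, had log2 fold changes of 0.14, 0.18 and 0.15 in PofD119, Zhr1 and PoX2Df1.688, with adjusted p of 0.256, 0.143 and 0.243. In PofD119 males its libraries had 33.8, 28.8, 32.1 and 31.7 CPM, against 27.8, 25.95, 31.6 and 29.6 CPM in OR males, and the groups overlapped. The values in Zhr1 males were 36.2, 33.6, 30.98 and 29.2 CPM and in PoX2Df1.688 males 33.6, 29.04, 32.5 and 32.3 CPM, which overlap the OR range too. Larval fat body markers, which flies carry over from the larva after eclosion, were higher in males of both repeat deletions, with 5 of 6 called higher and 1 lower in Zhr1 males and 6 of 6 in PoX2Df1.688 males, and 4 of 5 accessory gland markers were called higher in PofD119 males.

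The Zhr1 effect differed between the sexes for 3 members. The interaction term, the log2 fold change of Zhr1 over OR in males minus that in females, was -0.68 (SE 0.14, adjusted p = 0.00163) for *mof*, -0.50 (SE 0.16, adjusted p = 0.0237) for *msl-1* and -0.32 (SE 0.10, adjusted p = 0.0251) for *Clamp*, against 23.1% of all genes tested that were called in this term, 13.6% in the negative direction. *msl-3* had -0.36 (adjusted p = 0.176), *mle* -0.05 and *msl-2* 0.21 (adjusted p = 0.209), and were not called. The *msl-1* call was lost without OR female replicate 2 or 3, Zhr1 female replicate 4 or Zhr1 male replicate 4 (adjusted p 0.0509 to 0.0618), and the *Clamp* call without Zhr1 male replicate 1 (0.0564). For PoX2Df1.688, 0 of 6 members were called by edgeR, against 5.79% of all genes, although *mof*, at -0.42 (adjusted p = 0.0826), was called by DESeq2 (adjusted p = 0.0382). For PofD119, 0 of 6 were called by either tool, against 1.41% of all genes.

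Across the 8 groups *msl-1* varied most, with its highest group mean 3.13 times its lowest (32-library scale). Its order was 118 ± 3.95 CPM in Zhr1 females, 98.8 ± 3.65 CPM in PoX2Df1.688 females, 79.5 ± 7.34 CPM in OR females and 67.9 ± 17.5 CPM in PofD119 females, then males from 42.0 ± 3.36 CPM in Zhr1 to 37.8 ± 3.04 CPM in PofD119 (SD, n = 4 each). Zhr1 females, PoX2Df1.688 females and the males as a whole were each apart from their neighbours in this order, whereas OR and PofD119 females overlapped, as did the male groups. For *msl-2*, with a ratio of 1.91, only the step between the sexes separated neighbours, the male means lying between 30.4 and 33.6 CPM and the female means between 17.6 and 20.95 CPM. *mof* (ratio 1.86) was highest in Zhr1 females, at 25.2 ± 0.98 CPM, apart from the next group, PoX2Df1.688 females at 21.8 ± 1.49 CPM, and it was lowest in PofD119 males at 13.6 ± 1.02 CPM. *msl-3* (1.62), *Clamp* (1.24) and *mle* (1.22) had no neighbours that were apart. Per kilobase of exon the group means were 18.5 to 22.99 CPM per kb for *Clamp*, 7.53 to 23.6 for *msl-1*, 10.6 to 12.9 for *mle*, 7.30 to 11.8 for *msl-3*, 4.58 to 8.73 for *msl-2* and 4.50 to 8.35 for *mof*. On this scale *Clamp* had the highest mean and *mof* the lowest of the 6 in each of the 4 male groups, and the male means of *msl-1*, *msl-2* and *msl-3* lay close together, between 7.30 and 8.96 CPM per kb.

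The other genes of the dosage compensation system, 27 list entries of which 26 were found in the table, were called most often, among the 6 comparisons of a mutant with OR, in Zhr1 females. There 14 of 25 tested were called higher and 1 lower, that is 56.0% higher against 20.3% of all genes. In Zhr1 males 0 of 26 were called higher and 1 lower, against 12.6% and 10.4% of all genes. In the Zhr1 interaction 13 of 26 were called, all negative, against 13.6% of all genes in that direction. A negative term means a lower Zhr1 effect in males than in females. The counts of higher and lower calls were 1 and 2 of 25 in PofD119 females, 5 and 0 of 25 in PoX2Df1.688 females, 4 and 2 of 26 in PofD119 males and 3 and 3 of 26 in PoX2Df1.688 males. The percentages of all genes called higher and lower were 8.08 and 8.4 in PofD119 females, 8.9 and 10.5 in PoX2Df1.688 females, 13.6 and 11.6 in PofD119 males and 11.5 and 9.4 in PoX2Df1.688 males, so that several of these counts were near the share over all genes. Between the sexes 21 of 26 were called in PofD119, Zhr1 and OR and 22 of 26 in PoX2Df1.688. Of all genes, 61.8%, 70.7%, 60.7% and 61.9% were called between the sexes in PofD119, Zhr1, OR and PoX2Df1.688. In the same order, 65.4%, 73.1%, 65.4% and 76.9% of the list were called lower in males. The shares of all genes called lower in males were 28.9%, 27.7%, 26.4% and 25.6%. The genes called higher in Zhr1 females held 3 of the 8 NSL genes, whose complex shares MOF. They also held 3 of 5 genes listed for enzymes other than MOF that write or erase histone acetylation.

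The roX RNAs, which join the MSL proteins in the complex, were far higher in males than in females. On the 32-library scale *roX2* averaged 157 ± 5.52 CPM in PofD119 males and 115.5 ± 11.8 CPM in OR males (SD, n = 4 each), a log2 fold change of 0.44 (SE 0.07, adjusted p = 0.000251). *roX1* averaged 1117 ± 44.8 CPM in PofD119 males and 1002 ± 64.2 CPM in OR males, a log2 fold change of 0.16 that was not called (adjusted p = 0.0704). Neither was called in Zhr1 or PoX2Df1.688 males, where the log2 fold changes were between 0.06 and 0.14. In females *roX1* group means were 2.66 to 3.95 CPM and those of *roX2* 0.07 to 0.21 CPM, and *roX2* did not pass the filter there.

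Among the partners of the MSL proteins, the histone H3 kinase gene *JIL-1* was called higher in 4 of the 6 comparisons with OR, by 0.41 in Zhr1 females, 0.36 in PoX2Df1.688 females, 0.26 in PofD119 males and 0.22 in PoX2Df1.688 males on the log2 scale. *Unr*, whose protein acts with Sex lethal to repress *msl-2* mRNA in females, was higher in females of all 3 mutants, by 0.29 in PofD119, 0.43 in Zhr1 and 0.47 in PoX2Df1.688. *Hrb27C*, which encodes an RNA-binding protein of the same repression, was higher by 0.41 in Zhr1 females, 0.31 in PoX2Df1.688 females and 0.18 in PoX2Df1.688 males. *Sxl* itself was not called in any of the 6, with log2 fold changes between -0.09 and 0.12. *Su(var)3-7*, a heterochromatin protein gene, was higher by 0.67 in Zhr1 and 0.41 in PoX2Df1.688 females, and *E(bx)*, a subunit gene of a nucleosome remodeller, by 0.39 and 0.32 in the same groups.

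*Trl*, which encodes the GA-repeat-binding GAGA factor, was higher in PofD119 males by 0.38 and in PoX2Df1.688 males by 0.41. *pzg*, a zinc-finger protein gene, was the one gene lower in all 3 male mutants, by -0.36 in PofD119, -0.36 in Zhr1 and -0.40 in PoX2Df1.688. *Rcd5*, of the NSL complex, was lower in PofD119 of both sexes, by -0.34 in males and -0.48 in females. *dgt1*, also of that complex, was lower in PoX2Df1.688 males by -0.51 and higher in Zhr1 females by 0.40, and *chm*, a histone acetyltransferase gene, was higher in PofD119 males by 0.46 and in Zhr1 females by 0.58. All of these calls had an adjusted p of 0.0469 or below.

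**Figure D5:**
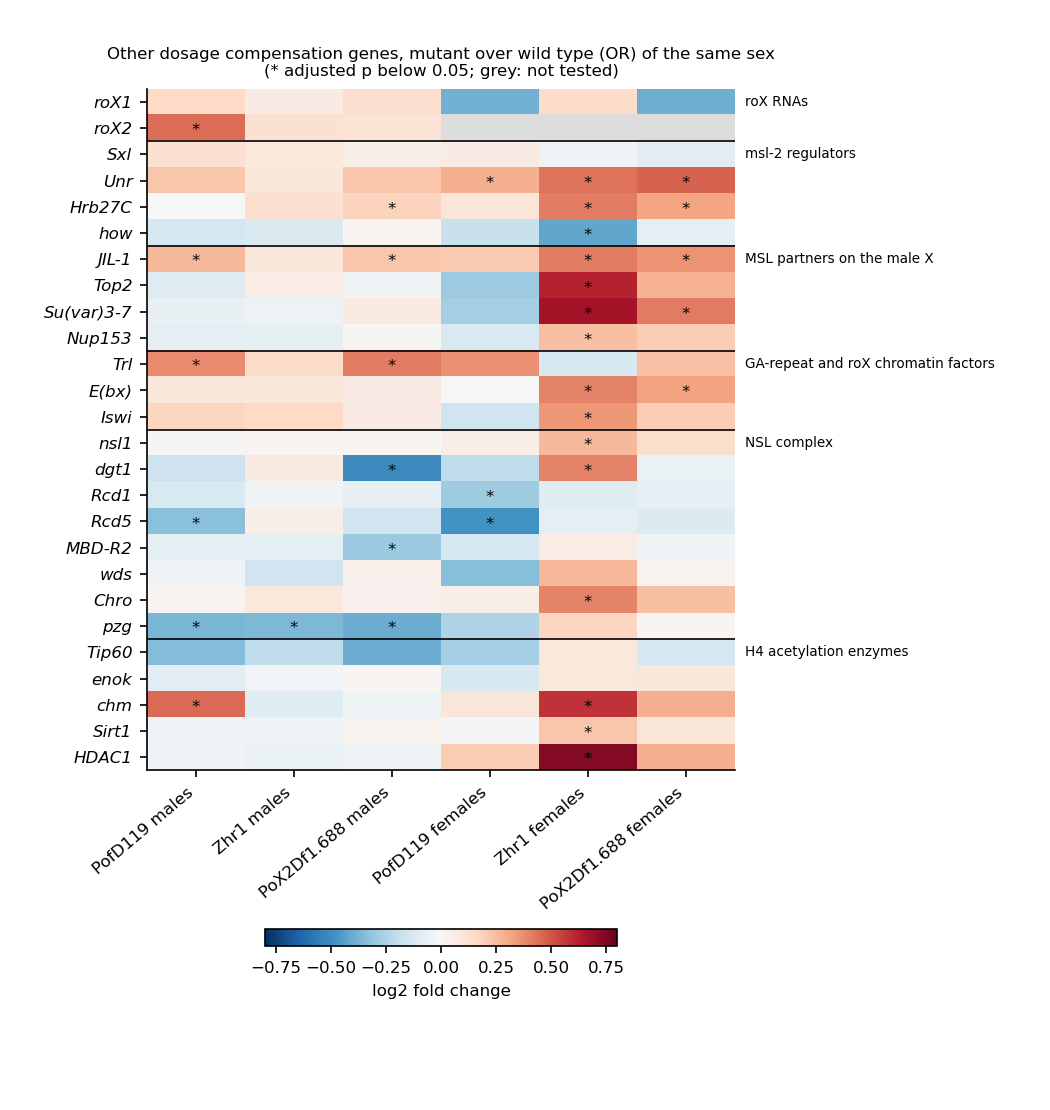
Colour scale of the log2 fold change of each mutant over OR of the same sex (columns) for the other dosage compensation genes (one line per gene, grouped by role), with asterisks on genes called at an adjusted p below 0.05. Zhr1 females have the most marked genes, with 14 of the 25 other genes tested called higher there, while in Zhr1 males 1 of 26 was called, lower.

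The genes whose log2 CPM followed each member most closely over the 32 libraries, among 13948 genes, are given as a description, since the libraries share depth, scaling and a strong sex difference. They were *Ice1* (Pearson r = 0.987), *Cp190* (0.987) and *rdx* (0.986) for *msl-1*, and *Pp1-13C* (0.975), *CG15539* (0.974) and *CG3491* (0.972) for *msl-2*. For *mof* they were *CG12316* (0.930), *NSD* (0.924) and *CoRest* (0.924). The values were lower for *msl-3*, with *CG2694* (0.809), *CG17712* (0.802) and *CG2218* (0.797), and for *mle*, with *Oga* (0.774), FBgn0027885 (0.761) and *osa* (0.753). For *Clamp* they were *Ptp69D* (0.794) and the chorion genes *Cp19* (0.777) and *Cp7Fa* (0.763). With the mean of each sex subtracted the leading genes were *Cp190* (0.933) for *msl-1*, *Pde9* (0.772) for *msl-2*, *trem* (0.802) for *msl-3*, FBgn0027885 (0.757) for *mle*, *Hmt4-20* (0.866) for *mof* and *Ptp69D* (0.777) for *Clamp*. Among the members themselves, r was -0.93 between *msl-1* and *msl-2*, 0.87 between *msl-1* and *mof* and 0.74 between *msl-3* and *Clamp* over the libraries as they stand, and -0.56, 0.71 and 0.72 for the same pairs with the mean of each sex subtracted.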

How the data were processed

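Whole-fly RNA of 32 samples (4 per sex and genotype) was measured by rRNA-depleted RNA sequencing. The authors trimmed reads with Trimmomatic 0.36, aligned them with STAR 2.5.4b and deposited raw read counts per gene from featureCounts 1.6.3 on the release 6 annotation. The deposited counts were fitted with edgeR 4.0.16 and limma 3.58.1 in R 4.3.3, after filterByExpr and TMM scaling. The 6 mutant comparisons used the 16 libraries of a sex (11938 genes tested in females, 13503 in males). The 4 sex comparisons and 3 interactions used all 32 libraries (13948 genes). P-values were adjusted over all genes tested. Single genes were also tested by exact two-sided permutation of log2 CPM (35 groupings up to sign), with a prior count of 2. Alternatives were DESeq2 1.42.0, other scalings, no filter, thinning, 1 fit over all libraries, the replicate block and each library left out. The fits were tested on simulated data with changes larger than those of the members between a mutant and OR. How often changes as small as those would be called was therefore not tested. Total counts of 12186486 to 37992591 per library limit the precision of genes with few counts, such as *mof*, and libraries of 1 group differed by more than sampling noise. Nothing states that replicates came from separate cultures, so p-values measure the spread between these samples.

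The members and gene lists were chosen with earlier results of these data known. The text names the 6 members, the roX RNAs, *Pof*, other list genes called in at least 2 of the 6 mutant comparisons, and the 3 genes most correlated with each member. *Sxl*, which falls outside this rule, was named after its values were seen. Of 91 list entries, 88 were found by symbol.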

Additional observations from a re-analysis of the deposited data

Results flagged for a closer look

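*msl-3* in PoX2Df1.688 female replicate 4 was at 21.6 CPM, whereas the other 3 libraries of that group lay at 15.8, 16.3 and 16.5 CPM (32-library scale). Its gap to the nearest library was above the critical share of the group's range, 0.829 for 4 samples. This was 1 of 48 sets of a member and a group, and chance flags about 1 in 20.

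The effect of Zhr1 differed between males and females for 3 members by the interaction term of the edgeR fit, with log2 differences of -0.50 for *msl-1*, -0.68 for *mof* and -0.32 for *Clamp*. All 3 were called higher in Zhr1 females and were not called in Zhr1 males, where their log2 fold changes over OR were 0.11, -0.22 and 0.02. Such a difference was common, with 23.1% of all genes called in this term.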

How the results depend on the processing

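No fold change of a called member changed sign under any alternative. The replicate numbers did not pair the libraries (correlations of same-numbered deviations were -0.23 to 0.16), and the fit with the replicate block called 3 members in Zhr1 females, where the fit without it called 4, *msl-3* falling to 0.41 (adjusted p = 0.0525). The block changed the number of members called in no other comparison. In PofD119 females 1 member was called with library totals only (*mof*, -0.30, adjusted p = 0.0477), in PofD119 males 1 with DESeq2 and 1 with library totals (*mof* both times), and in PoX2Df1.688 females 1 with all libraries in one fit (*msl-1*, adjusted p = 0.0428) and 1 after thinning (*mof*, adjusted p = 0.0339). Between PoX2Df1.688 males and females 6 members were called with library totals and 6 after thinning, where 3 were called as reported. In the PoX2Df1.688 interaction DESeq2 called 1 member and 1277 genes, against 808, and in the PofD119 interaction 382 genes with DESeq2 and 130 after thinning, against 197. The *mof* difference between the sexes in PofD119 missed the threshold with DESeq2, relative log scaling, thinning and TMM from sex-unbiased genes (adjusted p 0.0514 to 0.0969), and *mof* in OR and *mle* in Zhr1 were called lower in males with library totals and after thinning.

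With 1 library left out, the members called numbered 0 to 1 in PofD119 females, 3 to 4 in Zhr1 females, 0 to 1 in PofD119 males, 2 to 4, 5 to 6, 3 to 6 and 2 to 3 between the sexes in PofD119, Zhr1, PoX2Df1.688 and OR, and 2 to 3 in the Zhr1 interaction. All genes called then numbered 1466 to 2495 in PofD119 females, 2079 to 3085 in PoX2Df1.688 males, 473 to 908 in the PoX2Df1.688 interaction (507 without OR female replicate 3, 473 without OR male replicate 1, 488 and 536 without PoX2Df1.688 male replicates 2 and 4), 147 to 242 in the PofD119 interaction and 2485 to 3543 in the Zhr1 interaction. Library totals in place of TMM shifted the median log2 fold change of all genes by -0.11 in PofD119 females, 0.12 in Zhr1 females, -0.22 between Zhr1 males and females, -0.10 between PoX2Df1.688 males and females and -0.12 in the Zhr1 interaction, and thinning shifted it by -0.15 between Zhr1 males and females. The percentage of called genes that were higher with library totals, against the reported fit, was 26.9 against 49.0 in PofD119 females, 65.1 against 49.4 in Zhr1 females, 37.9 against 54.0 in PofD119 males, 40.6 against 54.9 in Zhr1 males, 40.3 against 55.1 in PoX2Df1.688 males, 49.2 against 60.8 between Zhr1 males and females and 24.7 against 41.0 in the Zhr1 interaction. It was 42.4 in PoX2Df1.688 males with all libraries in one fit, and 65.4 against 50.6 in the PoX2Df1.688 interaction with no filter. Causes of these shifts were not tested. Depth limits *mof* and *msl-3* most, with 141 and 148 counts in their shallowest libraries.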
